A study of Homo sapiens with 8 samples.

Results

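The mitochondrial ribosomal protein genes were the rows of the count table whose symbol began with MRPL (large subunit) or MRPS (small subunit) followed by a digit, without pseudogenes. There were 70 such rows among 13841 in all, 44 of them for the large and 26 for the small subunit, each symbol on a row of its own, and 2 pseudogene rows were left out. RNA came from A549 cells, an established epithelial line from a human lung adenocarcinoma, in 2 groups of 4 libraries. The first group (libraries 1, 3, 4 and 5, labelled senescent) held cells that stained for β-galactosidase, a lysosomal activity raised in senescent cells. The second (libraries 2, 6, 7 and 8, labelled non-senescent) held cells that did not stain. Both groups had been stretched cyclically for 24 h at 15% elongation and 15 cycles per min, grown for 6 days and then sorted by the stain; unstretched cells were not analysed here. The comparison asks whether transcripts for the mitochondrial ribosome differ between stained and unstained cells after stretch, in a series on stretch and senescence of lung epithelium. A549 is a tumour line, and the stain is the one property by which the groups were formed.

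Mitochondrial ribosomes translate the few messages encoded by mitochondrial DNA, all of them for membrane proteins of oxidative phosphorylation. Their RNA is made inside the organelle, but every one of their proteins is encoded in the nucleus, made in the cytosol and imported. The particle shares a core of proteins with bacterial ribosomes and carries many others that bacteria lack. Lung epithelial cells depend on oxidative phosphorylation, and changes of mitochondria are a known feature of senescent cells.

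The libraries held 5634961 to 7990839 counts. Positive 1 and negative 2 stood apart from the others of their groups. The pair of one group that differed least (positive 3 and 5) still had a chi-square of 7.98 per degree of freedom. The libraries of a group thus differed by more than counting error, which does not show that they came from separate cultures or RNA. All 10 epithelial markers looked for were on the rows of the table, at a summed level of 5760 to 7279 CPM (counts scaled to a common library total) in positive and 6802 to 8003 CPM in negative cells. ALDH1A1 and AKR1B10, detoxifying enzymes at high levels in A549, made up 62.9% to 68.6% of these counts in positive and 64.4% to 69.5% in negative libraries. EPCAM, an epithelial surface protein, had 88 to 135 counts in positive and 96 to 126 in negative libraries, and CDH1, the epithelial cadherin, 174 to 450 and 352 to 400. Of the 10 markers, AKR1C2 and AKR1C3 were barely counted and not tested. AKR1C2 had 0 to 3 counts in positive and 1 to 14 in negative libraries, and AKR1C3 0 to 3 and 0 to 6. The 8 epithelial markers tested were all below 0 in positive over negative cells, as were most members, with a median log2 fold change of -0.28 (7 of 8 and -0.14 without positive 1 and negative 2). The 6 of 8 fibroblast markers on the rows came to 20.6 to 21.2 CPM in positive and 18.3 to 21.3 CPM in negative cells. The 3 of 6 leukocyte markers on the rows came to 72.4 to 77.2 CPM and 51.1 to 72.6 CPM, and CDH5, the 1 of 4 endothelial markers on the rows, to 0 to 1.21 CPM and 0 to 1.06 CPM. Their part in the results was not tested. GLB1, the gene for lysosomal β-galactosidase, had a log2 fold change of -0.23 ± 0.20 (SE; positive over negative throughout; edgeR adjusted p = 0.569).

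Many promoters of these genes carry short motifs that recur in genes for mitochondrial proteins. They are shown first, because the genes are often treated as a set under shared regulators. Promoter windows from the RefSeq table for GRCh38.p14, running from 250 bases before to 50 bases after an annotated start, were matched by symbol for 61 of the 70 genes (76 windows). The letters CCGGAAG, a core bound by ETS factors such as GABPA (also called NRF2 alpha), were found on either strand in 35.5% of the members' windows, against 17.1% of the windows of all tested protein-coding genes and 10.3% of all 35116 windows. In the lines below the motif is in capitals, each line is 30 bases read 5′ to 3′ along the gene's strand, and CTTCCGG is the same motif on the other strand. MRPL27 and MRPL51 are shown because they had the lowest fold changes, MRPS18A because its window also holds the next motif, and MRPS10, MRPL43 and MRPL52 because their fold changes were above 0.

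MRPL27 (chr17:50373218-50373247, minus strand): ccacgcagggcCCGGAAGtagatctcctga

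MRPL51 (chr12:6493363-6493392, minus strand): gcgctccaaaaCTTCCGGcaggcggaccgg

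MRPS18A (chr6:43687804-43687833, minus strand): ggcgctacgttCCGGAAGcggaaatggacg

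MRPS10 (chr6:42217865-42217894, minus strand): ccgctgtaaccCCGGAAGcaatcctgagag

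MRPL43 (chr10:100987497-100987526, minus strand): tcgtcccggaaCCGGAAGcctcgaggttta

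MRPL52 (chr14:22829871-22829900, plus strand): ggccacgcctaCTTCCGGctaccccggcta

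A form of the YY1 motif that contains a start codon, the 10 letters in capitals in the next lines, was found on either strand in 15.8% of the members' windows, against 2.54% of the windows of tested protein-coding genes and 1.2% of all windows. The end of the ETS core and the start of this motif can share the letters AAG, and both stand apart in the windows printed here. MRPL22, MRPL38, MRPS30 and MRPS18B are shown because they were among the members with lower values in positive cells, and MRPS18A and MRPS10 because both motifs stand in their windows. The windows of MRPL38 (ETS at -208, YY1 at 6) and MRPL52 (ETS at -5, YY1 at -98) hold both motifs as well.

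MRPL22 (chr5:154941093-154941122, plus strand): gtagcgggagggcgaAAGATGGCGGcggca

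MRPL38 (chr17:75904859-75904888, minus strand): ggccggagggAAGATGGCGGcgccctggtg

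MRPS30 (chr5:44808950-44808979, plus strand): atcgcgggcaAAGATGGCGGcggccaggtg

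MRPS18B (chr6:30617853-30617882, plus strand): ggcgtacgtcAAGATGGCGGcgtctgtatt

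MRPS18A (chr6:43687763-43687792, minus strand): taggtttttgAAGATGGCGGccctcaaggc

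MRPS10 (chr6:42217833-42217862, minus strand): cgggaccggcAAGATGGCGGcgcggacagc

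The motif of nuclear respiratory factor 1 (NRF1), searched on either strand as GCGCA, any base N and GCGC, was found in 10.5% of the members' windows, 9.97% of those of tested protein-coding genes and 5.78% of all windows. Its strict form, with T for N, was in 1.32%, 1.95% and 1.24%. The window of MRPS9, shown because MRPS9 is one of the members whose groups did not overlap, holds the relaxed form on the other strand, in capitals.

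MRPS9 (chr2:105038019-105038048, plus strand): cgcgccattaGCGCCTGCGCcgtctctagg

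Of the members' windows, 53.9% held at least one of the 3 motifs, against 26.5% of those of tested protein-coding genes and 15.7% of all windows. The 35 ETS matches lay at a median of 31 bases before the start (median position -31) and the 12 YY1 matches at a median of 8.5 bases after it. The 9 NRF1 matches had a median position of -110. Matches were counted per window, so sites in overlapping windows of MRPS22 and MRPL47 (ETS) and of MRPL34 (NRF1) were counted more than once. The longer stretches upstream of MRPS10 and MRPS18A, 100 bases each with the ETS core in capitals, show how near to the start the core can stand.

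MRPS10 (chr6:42217866-42217965, minus strand): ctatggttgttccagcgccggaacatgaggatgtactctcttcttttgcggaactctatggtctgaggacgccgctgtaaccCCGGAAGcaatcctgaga

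MRPS18A (chr6:43687792-43687891, minus strand): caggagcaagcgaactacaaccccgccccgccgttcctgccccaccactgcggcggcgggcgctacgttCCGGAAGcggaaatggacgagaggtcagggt

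A match describes the letters of the window, and binding was not measured.

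**Figure D1:**
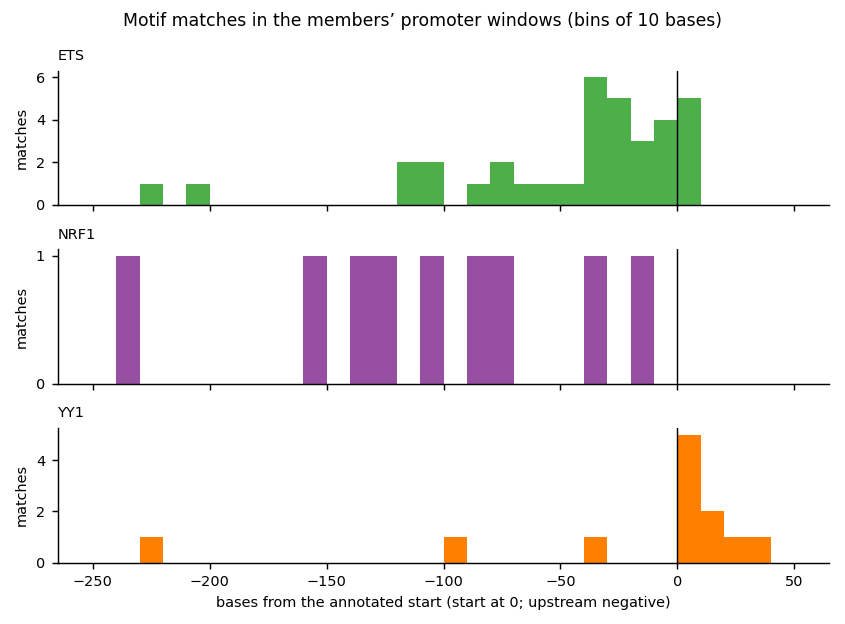
Positions of the ETS core (green), the relaxed NRF1 motif (purple) and the YY1 motif (orange) in the 76 promoter windows of the mitochondrial ribosomal protein genes, in bins of 10 bases. The horizontal axis gives bases from the annotated start (negative upstream) and the vertical axis the number of matches, counted per window. ETS matches gather just upstream of the start and YY1 matches just downstream of it, with medians of -31 and 8.5.

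Most mitochondrial ribosomal protein genes had lower values in positive cells, and no single gene passed the test. Of the 69 genes that passed the filter on low counts, 59 had a log2 fold change below 0 (85.5%), while 51.9% of all 11351 rows tested lay below 0. The median over the 69 genes was -0.29, against -0.02 over all rows. Scaled by library totals alone, 53 of the 69 genes and 39.5% of all rows lay below 0, with the median of all rows at 0.10 and that of the genes at -0.26 relative to it. At an adjusted p under 0.05 edgeR called 0 members and 0 of all rows (a background of 0%), the smallest adjusted p being 0.312 among the members and 0.309 among all rows, while 1631 rows had an unadjusted p under 0.05. DESeq2 called 52 rows (0.458%) and limma voom 0 rows, with 0 members among them in either. In these bulk libraries, fewer cells with much of a transcript and less of it in each cell cannot be told apart.

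At an unadjusted p under 0.05, 14 of the 69 members were lower (20.3%, against a background of 6.85%) and 0 were higher (background 7.52%). In 6 members every positive library lay below every negative one (8.70%, background 4.14%), and in 1 member every positive library lay above (1.45%, background 5%). The 14 were MRPL2, MRPL15, MRPL22, MRPL27, MRPL38, MRPL39, MRPL48, MRPL51, MRPS5, MRPS6, MRPS9, MRPS18B, MRPS18C and MRPS30. This count was 3 without negative 2, 6 without positive 4 and 9 without negative 7. In these fits 1117 of 11510, 1226 of 11455 and 1256 of 11552 rows had an unadjusted p under 0.05, in either direction. The background of lower rows alone is not given for these fits. Whether the members exceeded it in them is therefore not shown, above all without negative 2. Separate cultures are not named in the labels for these libraries. The p-values thus reflect just the spread among the libraries, which may be technical. The labels are also silent on whether stained and unstained cells were sorted out of shared cultures, in which case the groups would be paired in a way that these unpaired errors and p-values do not take into account.

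**Figure D2:**
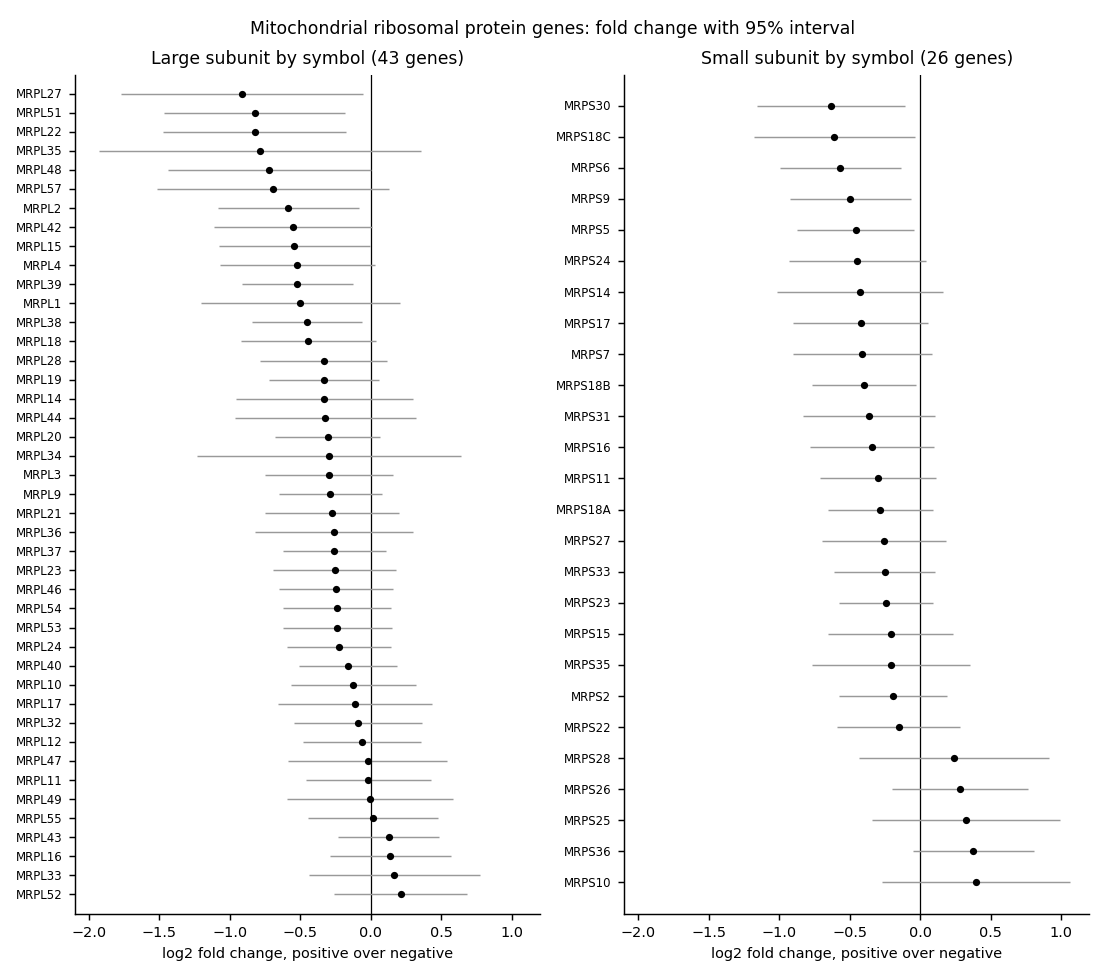
Log2 fold change (positive over negative cells) of each tested mitochondrial ribosomal protein gene with its 95% interval from the edgeR fit, large subunit on the left (43 genes) and small subunit on the right (26 genes). Points lie left of 0 for 38 large-subunit and 21 small-subunit genes, and most intervals cross 0.

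The libraries did not contribute equally to this pattern. Negative 2 was the highest of the 8 libraries for 54 of the 69 members, and it was the highest for 29.4% of all rows. Positive 1 was the lowest library for 19 of the 69 members (27.5%), near the 23.9% of all rows. Positive 4 was the lowest for 16 of the 69 members and for 10.9% of all rows. The median member stood 0.58 log2 units higher in negative 2 than in the other negative libraries, against 0.02 for all rows. By the same measure 11 members were over 2-fold higher in negative 2 (15.9%, background 5.96%) and 3 over 2-fold lower (4.35%, background 9.68%). The SD was larger in negative than in positive cells for 55 of the 69 members. Negative 2 enters this SD and the share of all rows was not counted, so no trait of the members can be read from it.

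As a share of all counts, before any scaling, the 70 rows held 0.563%, 0.560%, 0.562% and 0.560% in positive 1, 3, 4 and 5. They held 0.697%, 0.577%, 0.584% and 0.595% in negative 2, 6, 7 and 8. Every negative library was above every positive one, and the Wilson 95% intervals, which cover counting error alone, reached at most 0.00618 percentage points on either side and overlapped among the positive libraries. Positive cells averaged 0.561% ± 0.00183 and negative cells 0.614% ± 0.0563 (SD, n = 4 each).

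**Figure D3:**
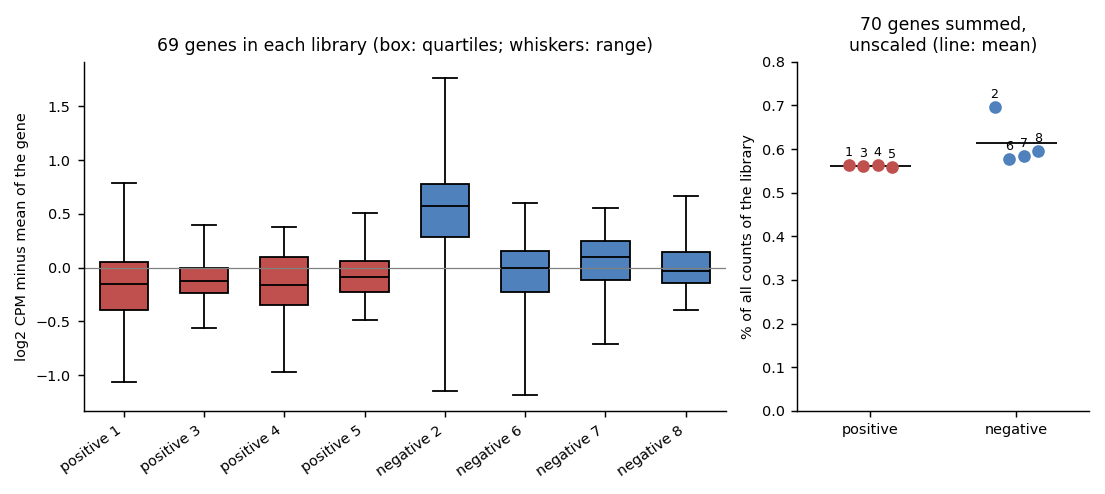
Left, log2 CPM of the 69 tested genes in each library minus the mean of the gene over the 8 libraries (box, quartiles and median; whiskers, range), positive libraries in red and negative in blue. Right, share of all counts on the 70 rows, 1 point per library with its number and a line at the group mean; negative 2 stands at 0.697% and the positive libraries between 0.560% and 0.563%.

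Without positive 1 and negative 2, 48 of the 69 members were below 0 (69.6%, background 47.9%) and their median was -0.11, against 0.01 for all rows. The direction held for 45 members that were below 0 in both fits, and 14 members below 0 in all 8 libraries were above 0 without these 2. Among these 14 were MRPL35, MRPL36, MRPL12, MRPL32 and MRPS35. At an unadjusted p under 0.05, 6 members were then lower (MRPL28, MRPL46, MRPL51, MRPS6, MRPS9 and MRPS18B; 8.70%, background 4.27%) and MRPL52 was higher (1.45%, background 5.77%). All 3 positive libraries lay below all 3 negative ones in 10 members, where 8.28% of all rows did so, and above them in MRPL52 and MRPS36, where 8.21% of all rows did so.

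**Figure D4:**
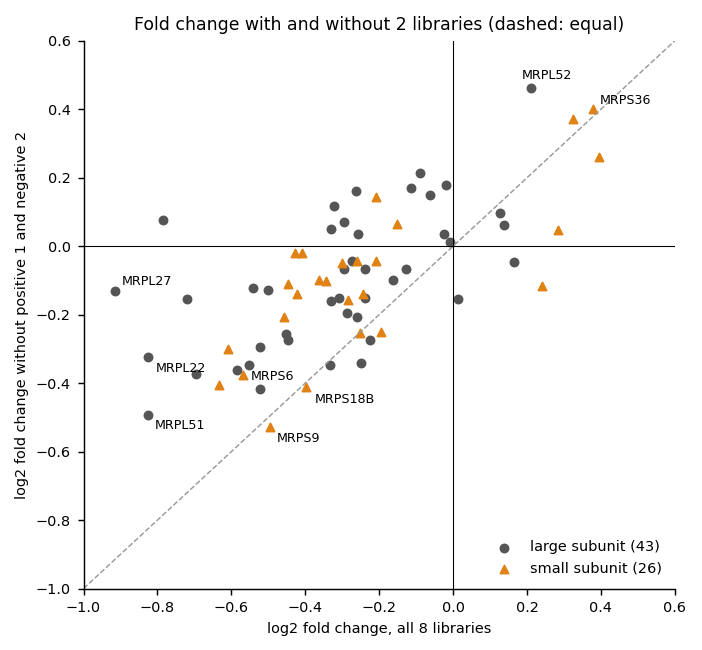
Log2 fold change of each member from all 8 libraries (horizontal axis) against that without positive 1 and negative 2 (vertical axis), large subunit as grey circles and small subunit as orange triangles; the dashed line marks equal values. Most points left of 0 lie above the line, MRPL27 moving to -0.13, while MRPS9 and MRPS18B stay near the line at -0.53 and -0.41.

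The large and small subunits had nearly the same median. In positive over negative cells 38 of 43 large-subunit genes and 21 of 26 small-subunit genes were below 0, the medians were both -0.29 and the difference of the medians was 0.004. The ratio of summed CPM, large over small, was 1.73, 1.67, 1.69 and 1.67 in the positive libraries (1, 3, 4 and 5), against 1.65, 1.64, 1.66 and 1.70 in the negative libraries (2, 6, 7 and 8). The groups overlapped, positive cells averaging 1.69 ± 0.0283 and negative cells 1.66 ± 0.0264 (SD, n = 4 each). The summed level was 3390 ± 71.1 CPM in positive and 4024 ± 686 CPM in negative cells for the large subunit. It was 2007 ± 52.6 CPM and 2424 ± 433 CPM for the small subunit. Negative 2 alone reached 5040 CPM (large) and 3058 CPM (small), while the other negative libraries reached 3536 to 3804 CPM and 2079 to 2296 CPM, still above every positive library (3323 to 3487 CPM and 1941 to 2061 CPM).

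Symbols and structure disagree for 3 genes. MRPS30 and MRPS18A encode proteins that sit in the large subunit in structures of the mammalian mitochondrial ribosome, and MRPS36 encodes a protein that belongs to the 2-oxoglutarate dehydrogenase complex rather than to the ribosome. With these moved or left out, 40 of 45 large-subunit and 19 of 23 small-subunit genes were below 0, with medians of -0.29 and -0.30.

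Among proteins with a bacterial counterpart, 25 of 28 large-subunit genes were below 0 (median -0.29) and 12 of 14 small-subunit genes (median -0.42). Among proteins whose place in the ribosome has no bacterial counterpart (called particular to mitochondria here, with MRPS18A and MRPS18B counted among them for their place and not their descent), the counts were 15 of 17 (median -0.28) and 7 of 9 (median -0.24). Without positive 1 and negative 2 the 4 medians were -0.07, -0.11, -0.16 and -0.04, in the order large and small subunit with a counterpart, then large and small subunit particular to mitochondria. Each of these medians was nearer to 0 than with all 8 libraries.

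The catalytic core and exit tunnel of the large subunit are formed by RNA with a few proteins reaching in. MRPL27, whose bacterial counterpart reaches the peptidyl transferase centre, had the lowest fold change of all members. It was at 11.7, 23.0, 17.1 and 26.6 CPM in the positive libraries (1, 3, 4 and 5, in this order throughout), against 74.0, 19.5, 30.6 and 24.0 CPM in the negative libraries (2, 6, 7 and 8). The groups overlapped, and negative 2 was more than 2-fold above every other library. Its log2 fold change was -0.92 ± 0.40 (SE; edgeR adjusted p = 0.329), and -0.13 without positive 1 and negative 2.

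MRPL2, whose bacterial counterpart is a core protein near the same centre, was at 19.7, 23.5, 18.9 and 24.1 CPM in positive cells and at 42.8, 23.4, 38.0 and 25.4 CPM in negative cells. The groups overlapped through negative 6, which lay within the positive range, and the log2 fold change was -0.59 ± 0.23 (edgeR adjusted p = 0.319) and -0.36 without positive 1 and negative 2. MRPL16, whose counterpart contacts transfer RNA in bacteria, was at 60.7, 35.8, 50.1 and 40.2 CPM in positive and 47.1, 45.0, 36.9 and 40.6 CPM in negative cells. Its groups overlapped, at a log2 fold change of 0.14 ± 0.20 (edgeR adjusted p = 0.743) and 0.06 without positive 1 and negative 2.

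MRPL22 lines the exit tunnel, through which the new chain leaves. It was at 8.01, 12.2, 10.9 and 14.5 CPM in positive and at 33.3, 13.5, 16.1 and 18.1 CPM in negative cells. Positive 5 overlapped with negative 6, and the other positive libraries lay below every negative one. The fitted log2 fold change was -0.83 ± 0.30 (edgeR adjusted p = 0.312), and -0.32 without positive 1 and negative 2. The exit tunnel genes as a list were below 0 in 5 of 5 cases (median -0.26), and in 2 of 5 without these libraries (median 0.04).

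The stalk with MRPL10, MRPL11 and MRPL12 recruits translation factors to the ribosome, while MRPL1 belongs to a separate stalk. These 4 genes, listed together as stalk, were all below 0 with a median of -0.09. MRPL1 was the lowest of them at -0.50, and 2 of 4 were below 0 without positive 1 and negative 2. MRPL11, at the base of the factor-recruiting stalk, was at 88.8, 80.9, 70.1 and 80.3 CPM in positive cells. It was at 117, 68.9, 76.0 and 62.6 CPM in negative cells. Its log2 fold change was -0.02 ± 0.20 (edgeR adjusted p = 0.971), among the 3 nearest 0, and every positive library lay within the negative range. The others of the 3 were MRPL49 at -0.01 ± 0.27, a protein particular to mitochondria, and MRPL55 at 0.01 ± 0.21, a protein of the central protuberance. These 3 were at 0.18 (MRPL11), 0.01 (MRPL49) and -0.15 (MRPL55) without positive 1 and negative 2.

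The central protuberance lies at the top of the large subunit and faces the small subunit. Of its 6 genes, 5 were below 0 (median -0.35), and 6 of 6 without positive 1 and negative 2 (median -0.21). MRPL38, one of its proteins particular to mitochondria, was at 56.6, 66.8, 59.0 and 69.2 CPM in positive and at 108, 72.9, 93.1 and 70.4 CPM in negative cells. The groups did not overlap, with positive 5 at 69.2 CPM just under negative 8 at 70.4 CPM. The log2 fold change was -0.45 ± 0.18 (edgeR adjusted p = 0.319), and -0.26 without positive 1 and negative 2.

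MRPL39 and MRPL51 are further large-subunit proteins particular to mitochondria. MRPL39 was at 51.2, 59.2, 56.2 and 55.4 CPM in positive and at 106, 73.3, 76.0 and 63.5 CPM in negative cells. Its groups did not overlap, and its log2 fold change was -0.52 ± 0.18 (edgeR adjusted p = 0.312). It was -0.30 without positive 1 and negative 2.

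MRPL51 was at 85.6, 81.7, 53.7 and 76.0 CPM in positive and at 225, 84.5, 132 and 85.4 CPM in negative cells. Positive 1 lay just above negative 6 and 8, so the groups overlapped, and the log2 fold change was -0.83 ± 0.30 (edgeR adjusted p = 0.312). Without positive 1 and negative 2 it was -0.49. The exons of MRPL51 share bases with NCAPD2 on the opposite strand, and no source used here gives whether the counting used strand.

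MRPS30, named for the small subunit but placed in the large one by structure, was at 17.4, 17.2, 22.9 and 22.5 CPM in positive and at 40.1, 18.8, 31.0 and 34.2 CPM in negative cells. Negative 6 alone lay within the positive range, and the log2 fold change was -0.63 ± 0.24 (edgeR adjusted p = 0.315), the lowest among genes named MRPS, and -0.41 without positive 1 and negative 2. In the large subunit MRPL52, a protein particular to mitochondria, had the highest fold change. It was at 29.7, 35.4, 33.2 and 35.4 CPM in positive and 39.1, 19.8, 26.6 and 29.9 CPM in negative cells, with negative 2 the highest, negative 6 and 7 below every positive library and negative 8 just above positive 1. Its log2 fold change was 0.21 ± 0.22 (edgeR adjusted p = 0.642), and 0.46 without positive 1 and negative 2.

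The small subunit binds the message and reads its codons. Of the genes for its decoding region and message channel, 3 were tested (MRPS2, MRPS5 and MRPS24) and all 3 were below 0, with a median of -0.45, and of -0.21 without positive 1 and negative 2 or without negative 2 alone. MRPS5, at the message channel in bacteria, was at 54.2, 58.7, 54.1 and 62.4 CPM in positive and at 110, 69.6, 69.3 and 66.2 CPM in negative cells. Its groups did not overlap, and the log2 fold change was -0.46 ± 0.19 (edgeR adjusted p = 0.323) and -0.21 without positive 1 and negative 2.

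MRPS6, the counterpart of a bacterial platform protein, was the member of smallest p. It was at 43.9, 35.5, 44.9 and 45.9 CPM in positive and at 85.9, 61.8, 52.0 and 52.5 CPM in negative cells. Every positive library lay below every negative one, at a log2 fold change of -0.57 ± 0.20 (edgeR adjusted p = 0.312) and -0.38 without positive 1 and negative 2. MRPS6 shares exon bases with SLC5A3 on the same strand (chr21:34073224-34143034 for MRPS6, GENCODE annotation of GRCh38), so reads of either gene could be counted for the other.

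MRPS9, whose bacterial counterpart touches transfer RNA in the peptidyl site, was at 15.5, 13.7, 10.7 and 11.9 CPM in positive and at 19.9, 16.9, 18.2 and 18.0 CPM in negative cells. The groups did not overlap, and negative 2 was close to the other negative libraries. Its log2 fold change was -0.50 ± 0.20 (edgeR adjusted p = 0.319), and -0.53 without positive 1 and negative 2.

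MRPS18A, MRPS18B and MRPS18C descend from the gene of one bacterial protein and take 3 different places in the ribosome. MRPS18C takes the bacterial place, MRPS18B sits elsewhere in the small subunit and MRPS18A in the large. MRPS18B was at 56.4, 49.3, 67.6 and 44.3 CPM in positive and at 69.8, 69.2, 77.8 and 69.9 CPM in negative cells. Its groups did not overlap, and its log2 fold change was -0.40 ± 0.17 (edgeR adjusted p = 0.327) and -0.41 without positive 1 and negative 2.

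MRPS18C was at 62.2, 63.4, 42.8 and 64.0 CPM in positive and at 141, 56.2, 82.6 and 73.7 CPM in negative cells. Negative 6 lay among the positive libraries, and the log2 fold change was -0.61 ± 0.26 (edgeR adjusted p = 0.327) and -0.30 without positive 1 and negative 2. MRPS18A was at 36.2, 39.9, 40.5 and 35.4 CPM in positive and at 54.2, 39.6, 50.02 and 41.1 CPM in negative cells, with negative 6 again within the positive range. For MRPS18A the log2 fold change was -0.28 ± 0.17 (edgeR adjusted p = 0.438), and -0.16 without positive 1 and negative 2. All 3 paralogs therefore had values below 0, and the ranges of 1 SE around their fold changes overlapped.

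The members above 0 in all 8 libraries numbered 10, and 7 of these were above 0 without positive 1 and negative 2 too (MRPL16, MRPL43, MRPL52, MRPS10, MRPS25, MRPS26 and MRPS36). MRPS36, the dehydrogenase subunit, was at 17.7, 18.4, 17.1 and 18.0 CPM in positive and at 13.7, 16.8, 10.7 and 13.7 CPM in negative cells. It was the member in which every positive library lay above every negative one. Its log2 fold change was 0.38 ± 0.20 (edgeR adjusted p = 0.385), and 0.40 without positive 1 and negative 2.

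MRPS10, a small-subunit protein with a bacterial counterpart, was at 35.9, 36.8, 44.4 and 48.6 CPM in positive and at 16.1, 48.9, 21.0 and 40.1 CPM in negative cells. It had the highest fold change of the members, 0.40 ± 0.31 (log2; edgeR adjusted p = 0.533), with groups that overlapped through negative 6 and 8. Negative 2 was its lowest library, the opposite of most members, and the value was 0.26 without positive 1 and negative 2.

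MRPS26, a small-subunit protein particular to mitochondria, was at 209, 121, 106 and 109 CPM in positive and at 118, 125, 106 and 98.8 CPM in negative cells. Positive 1 alone lay above the negative range. The log2 fold change was 0.28 ± 0.22 (edgeR adjusted p = 0.538), and 0.05 without positive 1 and negative 2. The other named members above 0 were MRPS25 at 0.33 ± 0.31, MRPS28 at 0.24 ± 0.31 and MRPL43 at 0.13 ± 0.17, all with edgeR adjusted p of 0.613 or more. They were at 0.37, -0.12 and 0.10 without positive 1 and negative 2.

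MRPL13 did not pass the filter on low counts and was not tested. It had 1, 8, 8 and 5 counts in the positive libraries, against 28, 2, 7 and 14 counts in the negative libraries. The groups overlapped at these low counts.

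**Figure D5:**
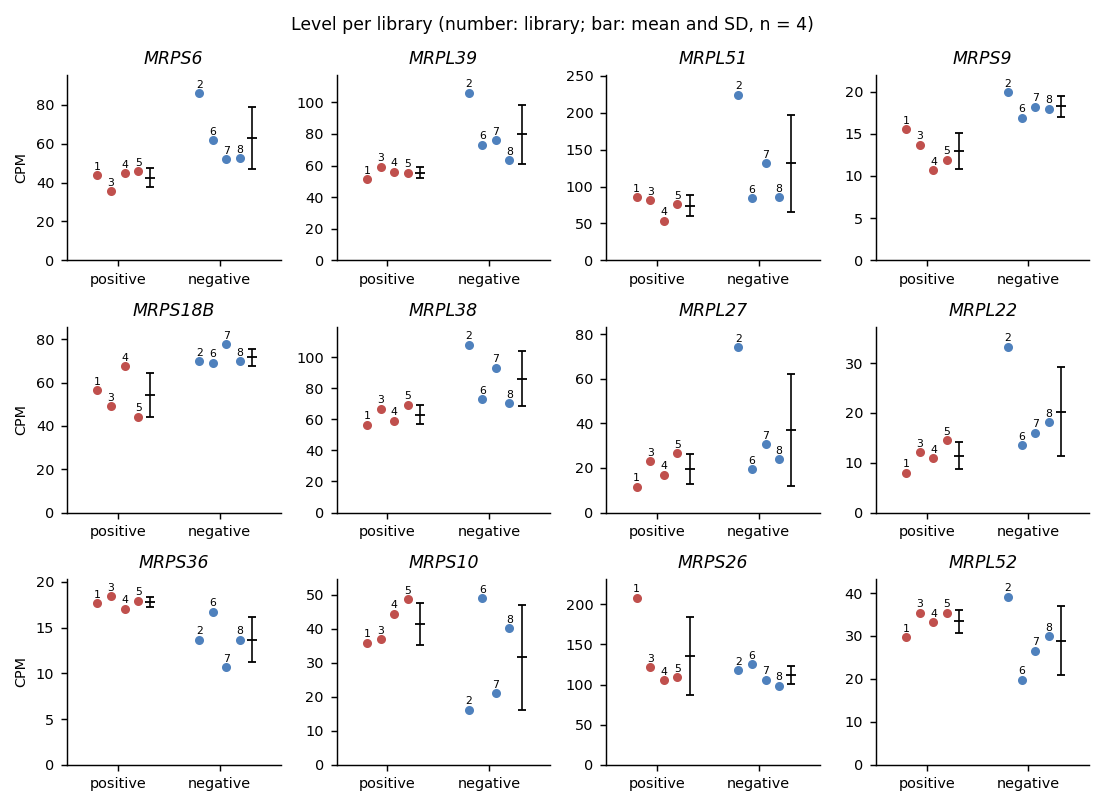
Level of 12 members in each library in CPM (vertical axes start at 0), positive libraries in red on the left of each panel and negative in blue on the right, numbered by library, with a bar for the mean and SD (n = 4). The groups do not overlap for MRPS6, MRPL39, MRPS9, MRPS18B, MRPL38 and MRPS36, and negative 2 stands far above the rest for MRPL27, MRPL22 and MRPL51.

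Fold changes of members with and without each motif are given here as a description, and the difference was not tested. Members with the ETS core in a window had a median log2 fold change of -0.25 (25 genes, 19 below 0), and those without it -0.31 (36 genes, 34 below 0). Members with the YY1 motif had a median of -0.34 (12 genes), against -0.30 without it (49 genes). For the relaxed NRF1 motif the medians were -0.30 (7 genes) and -0.29 (54 genes).

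The 70 genes lie on 21 chromosomes with at most 7 on any one. By name, 30 have annotated pseudogenes, whose sequence can take or give reads. The 30 had a median of -0.33, against -0.26 for the 39 tested genes without them. The exons of 32 members share bases with another protein-coding gene, and the 31 of these that were tested had a median of -0.28, against -0.30 for the other 38.

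Of the companion genes, 6 subunits with other symbols were tested, and 4 were below 0 (median -0.06). ICT1, a peptidyl-tRNA hydrolase built into the large subunit that frees stalled chains, was at 114, 119, 134 and 129 CPM in positive and at 212, 168, 193 and 171 CPM in negative cells. The groups did not overlap, and its log2 fold change of -0.59 did not pass in edgeR (adjusted p = 0.309) but did in DESeq2 (adjusted p = 0.0398). Without positive 1 and negative 2 it was -0.46. PTCD3, a pentatricopeptide protein of the small subunit, was at 0.28, and at 0.09 without these libraries.

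Of 25 factors for ribosome assembly and ribosomal RNA modification, 18 were below 0 (median -0.16), and 14 without positive 1 and negative 2 (median -0.06; -0.02 without negative 2 alone). RNMTL1, a methyltransferase of the large ribosomal RNA, was at -0.54 (-0.41 without both libraries) and MTG1, an assembly GTPase, at 0.78 (0.59). Of 15 translation factors, 10 were below 0 (median -0.24), and 8 without both libraries (median -0.07; -0.10 without negative 2 alone). TACO1, an activator of MT-CO1 translation, was at -0.59 (-0.58 without both) and TSFM, the exchange factor of elongation factor Tu, at -0.53 (-0.33). Of 16 genes for mitochondrial transcription and RNA stability, 11 were below 0 (median -0.14), and 8 without both libraries, at a median of -0.0024 (-0.03 without negative 2 alone). TRMT10C and HSD17B10, subunits of the RNase that cuts transfer RNAs out of the primary transcripts, were at -1.07 and -0.54 (-0.63 and -0.34 without both). None of these passed edgeR's test at an adjusted p under 0.05.

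The mitochondrial ribosome translates genes of mitochondrial DNA, of which 7 were tested. All 7 were above 0 (median 1.22), but at low levels and with positive 1 far above the others: the encoded rows summed to 109 CPM there before scaling, against 17.4 to 23.3 CPM in the other positive and 9.39 to 19.6 CPM in the negative libraries. Without positive 1 and negative 2 the median was 0.11. The cytosolic ribosomal protein genes, for comparison, were below 0 in 52 of 72 cases with a median of -0.18, and in 44 with a median of -0.03 without positive 1 and negative 2. The difference between the 2 kinds of ribosome was not tested.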

How the data were processed

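Gene expression was measured in 8 libraries of stretched A549 cells, 4 positive and 4 negative for β-galactosidase. Trizol was used for total RNA and an Ion Torrent amplicon kit for human transcripts, per the labels' protocols. Such a kit reads a short stretch of each gene, so levels of different genes are not on a common scale. The sums, shares and ratios over genes given above do add such levels and are meant for comparison between libraries. The authors deposited estimated counts for each gene, made with fastp 0.20.1 and Salmon 1.9 on GRCh38, per the submitters' processing notes, and all were whole numbers. The sources used here give neither the annotation nor the summing to genes nor the row filter.

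Rows were kept with filterByExpr (minimum count 10, total 15), which left 11351 and removed 2490. The test was that of edgeR 4.0.16 in R 4.3.3 (TMM scaling, robust quasi-likelihood test, Benjamini-Hochberg adjustment over all rows, threshold 0.05), a method tested on simulated data. CPM values are TMM-scaled, and SE is the fold change divided by the square root of F. Intervals cover the spread between libraries, and binomial ones counting error only.

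Alternatives were other scalings (RLE, upper quartile, totals alone), no filter, a minimum of 50 counts, DESeq2 1.42.0, limma 3.58.1 (voom with library weights), no robust estimation, rows of one symbol summed, each library left out, and positive 1 and negative 2 both left out. Members, lists, tests and alternatives were chosen with earlier results of these data known. Genes named were the 8 of smallest unadjusted p in each direction, the highest and lowest fold change of each subunit, the 3 nearest 0, the MRPS18 paralogs, MRPS30, MRPS36, untested members, the 2 companions of smallest p in each list and GLB1. MRPS5, other members of a count and marker genes were named after their values were seen. Subunit genes MRPL30, MRPL41, MRPL45, MRPL50, MRPS12, MRPS21 and MRPS34 had no row under these symbols in the count table used and so were not analysed here. Promoters are from RefSeq (GRCh38.p14), and gene coordinates from GENCODE 29.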

Additional observations from a re-analysis of the deposited data

Results flagged for a closer look

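In 3 of the 23 named members, 1 library lay far from the other 3 of its group. MRPS26 was at 209 CPM in positive 1, with the other positive libraries at 106 to 121 CPM. MRPS18C was at 42.8 CPM in positive 4, with the others at 62.2 to 64.0 CPM. MRPS18B was at 77.8 CPM in negative 7, with the other negative libraries at 69.2 to 69.9 CPM. Over all 69 tested members and both groups, 9 of 138 sets of 4 libraries were of this kind, and chance gives about 1 in 20. The sets share the same libraries and are not independent, and the share over all rows is not given. The library in question was positive 1 in 3 sets, positive 4 in 3, negative 2 in 2 and negative 7 in 1. The cause was not tested.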

How the results depend on the processing

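Of the 23 named members, 18 kept their direction in every one of the 18 refits that tested them. The exceptions were MRPL11, MRPL16, MRPL49, MRPL55 and MRPS28, and the smallest adjusted p of a named member was 0.169 (limma voom). Most of the 23 were named for a small p or an extreme fold change in these same data. Their steadiness was partly set by that choice and does not describe all members. Of the 69 tested members, 14 turned from below to above 0 without positive 1 and negative 2, and 3 turned the other way. MRPS25 was not tested at the minimum of 50 counts. No paired analysis was possible because each library number was used once, so no key to any pairing is known. With each library left out in turn, 1117 (without negative 2) to 1980 (without negative 8) rows had an unadjusted p under 0.05, in either direction. Lower rows alone are not given for these fits, so the next counts of lower members have no background of the same kind. Leaving out each library in turn gave 3 to 16 members lower at an unadjusted p under 0.05 (3 without negative 2), 0 to 2 higher, 0 to 1 rows called in all, member medians of -0.36 to -0.16 and a difference of large and small medians of -0.0058 to 0.074. The range was -0.10 to 0.23 for MRPL11, -0.013 to 0.25 for MRPL16, -0.21 to 0.21 for MRPL49, -0.12 to 0.16 for MRPL55, -0.020 to 0.016 for the median of all rows and -0.18 to 0.083 for the median of subunits with other symbols. Members lower and higher at an unadjusted p under 0.05 numbered 8 and 1 with upper quartile scaling, 4 and 1 with totals alone, 8 and 1 at 50 counts and 6 and 1 without positive 1 and negative 2, and voom gave 2 higher. In the same order, rows under 0.05 in either direction numbered 1569 of 11351, 1486 of 11351, 1190 of 8779, 1145 of 11401 and, with voom, 1857 of 11351. DESeq2 called 52 rows. Upper quartile scaling moved the median of all rows to 0.048, the median of subunits with other symbols to 0.0057, MRPL49 to 0.065 and MRPL11 to 0.057. Totals alone moved these to 0.097, 0.058, 0.13 and 0.12, and the median of stalk genes to 0.028. At 50 counts the median of subunits with other symbols was 0.0094, MRPL49 was at 0.044 and MRPL11 at 0.034, and with no filter MRPL55 was at -0.0026. With voom the large minus small median was -0.013, the stalk median 0.028, that of transcription and RNA stability 0.0093, MRPL16 -0.0040, MRPL49 0.0018, MRPL55 -0.14 and MRPL11 0.13. Without positive 1 and negative 2 the medians were -0.11 for all members, -0.12 for the large and -0.11 for the small subunit, -0.015 for their difference, 0.014 for all rows, 0.042 for the stalk and 0.036 for the exit tunnel, with MRPS28 at -0.12, MRPL49 at 0.013, MRPL55 at -0.15 and MRPL11 at 0.18. The cause was not tested. Depth was low for MRPL13, which was not tested, and 2 tested members had a mean under 5 CPM. The median 95% interval of a member was 0.46 log2 units on either side.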
